A study of Rattus norvegicus with 18 samples.

Results

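The 10 genes described here encode the carriers that return amino acids and small peptides from the tubular fluid to the blood in the kidney: Slc7a13, Slc3a1, Slc7a9, Slc3a2, Slc7a7, Slc7a8, Slc6a19, Slc6a18, Slc1a1 and Slc15a2. They were chosen by symbol, and all 10 were found among the 18420 gene rows of the deposited table. All 10 passed the filter on low values that left 13988 genes for testing. RNA-seq was made from the kidney cortex of ZDF (Zucker diabetic fatty) rats, a strain whose fa/fa animals lack a working leptin receptor and become obese and diabetic. The RYGB group held 6 libraries of diabetic fa/fa rats after Roux-en-Y gastric bypass, weight-loss surgery that joins a small stomach pouch to a lower loop of gut. The disease group held 6 libraries of diabetic fa/fa rats given as the disease control, and the healthy control group 6 libraries of lean, non-diabetic fa/+ rats. The lean rats carry 1 copy of the fa allele, and the labels give neither sex, age nor time after surgery, and do not say whether the disease rats had a sham operation. The libraries of a group are numbered 1 to 6, and no label says in words that each came from a separate rat, so p-values measure only how these libraries vary, which may be technical.

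Nearly all filtered amino acids are taken back in the proximal tubule, first in its convoluted part and then in its straight part. A carrier in the brush border brings the amino acid into the cell, and a second carrier on the blood side lets it out. Several of these carriers are pairs of a heavy subunit, which brings the pair to the membrane, and a light subunit, which does the transport. The heavy subunit rBAT, encoded by Slc3a1, pairs with the light subunit b0,+AT, encoded by Slc7a9, to take up cystine and the dibasic amino acids, and loss of either causes cystinuria. In mouse, rBAT also pairs in the straight part with AGT1, encoded by Slc7a13, a carrier of aspartate, glutamate and cystine. On the blood side the heavy subunit 4F2hc (CD98), encoded by Slc3a2, pairs with y+LAT1 (Slc7a7), which releases dibasic amino acids, and with LAT2 (Slc7a8), which exchanges neutral ones. Neutral amino acids enter through B0AT1 (Slc6a19), whose loss causes Hartnup disorder, and further along the tubule through the related B0AT3 (Slc6a18). EAAT3 (Slc1a1) takes up glutamate and aspartate, and PEPT2 (Slc15a2) takes up di- and tripeptides, mainly in the straight part.

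The promoters of 3 genes that differed between groups, Slc3a1, Slc6a18 and Slc15a2, are shown with that of Slc6a19, the neighbour and paralog of Slc6a18, because they show where the searched motifs lie. Each line is the 250 bases before the start of the gene, 5′ to 3′ on the gene's strand, from RefSeq on build GRCr8, and capitals mark a motif match. RefSeq's table held 8 of the 10 genes, without Slc7a13 and Slc1a1. The windows are chr6:15394750-15394999 (minus strand) for Slc3a1, chr1:31436403-31436652 (plus strand) for Slc6a18, chr1:31414494-31414743 (plus strand) for Slc6a19 and chr11:77519315-77519564 (plus strand) for Slc15a2.
Slc3a1: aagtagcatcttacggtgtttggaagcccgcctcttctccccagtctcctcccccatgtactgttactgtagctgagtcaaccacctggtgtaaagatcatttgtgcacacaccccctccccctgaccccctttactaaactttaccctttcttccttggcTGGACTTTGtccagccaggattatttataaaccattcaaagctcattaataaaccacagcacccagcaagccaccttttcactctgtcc
Slc6a18: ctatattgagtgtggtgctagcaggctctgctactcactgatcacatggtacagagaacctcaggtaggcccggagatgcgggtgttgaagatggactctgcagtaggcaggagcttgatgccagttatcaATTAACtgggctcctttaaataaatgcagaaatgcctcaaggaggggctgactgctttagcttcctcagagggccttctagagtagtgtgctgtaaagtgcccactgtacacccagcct
Slc6a19: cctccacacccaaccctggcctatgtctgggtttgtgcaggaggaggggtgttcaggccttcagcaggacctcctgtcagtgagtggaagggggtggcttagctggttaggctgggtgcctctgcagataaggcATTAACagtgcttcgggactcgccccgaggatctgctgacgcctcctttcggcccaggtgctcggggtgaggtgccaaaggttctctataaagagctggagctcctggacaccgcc
Slc15a2: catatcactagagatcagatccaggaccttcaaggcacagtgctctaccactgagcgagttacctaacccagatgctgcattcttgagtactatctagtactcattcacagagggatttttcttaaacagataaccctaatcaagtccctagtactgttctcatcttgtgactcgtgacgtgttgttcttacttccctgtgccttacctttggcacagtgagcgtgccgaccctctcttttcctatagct

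The motifs searched, on both strands, were the core CAAAGTCCA of HNF4 and the core GTTAAT of HNF1, 2 transcription factors of the proximal tubule, the full HNF1 motif (the core, any base, then the core's reverse complement), which overlaps the core, and the core TGATGNAAN of the amino acid response element. The HNF4 core lay on the opposite strand of Slc3a1, 89 bases before the start, and 0.338% of 33469 rat promoter windows of this length held it. The HNF1 core lay on the opposite strand of Slc6a18, 119 bases before the start, and of Slc6a19, 116 bases before the start, and 6.45% of all windows held it. The full HNF1 motif, which 0.00299% of all windows held, and the core of the amino acid response element, which 3.38% held, matched in 0 of the 9 windows of these transporters (Slc3a2 has 2). A match describes letters and not a bound site.

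Libraries held 8116638 to 42713246 reads in genes. The values are normalised read counts, a gene's reads in a library divided by that library's size factor, and they are not divided by transcript length, so levels are compared between libraries of 1 gene and not between genes. The fewest reads behind any value of the 10 genes were the 226 reads of Slc7a13 in a library. The proximal tubule genes Slc34a1 (lowest library 40156) and Slc5a2 (lowest 6991) and the podocyte gene Nphs1 (lowest 2353) were present in every library. These genes cannot tell cortex from a cut that reaches the medulla. The 3 listed medulla genes in the table summed to 449 to 707 in RYGB, 435 to 771 in disease and 497 to 713 in healthy control. The liver genes Alb and Apoa1 reached at most 134.7 and 10.1. The fat gene Adipoq had 219 to 605 in RYGB, 475 to 800 in disease and 386 to 586 in healthy control. It was called lower in RYGB than in disease (log2 fold change -0.82, limma adjusted p = 0.0289). Of the listed liver genes Cyp2e1 was abundant, at 28489 to 46396 in RYGB, 8204 to 23397 in disease and 6951 to 45164 in healthy control, and it was called higher in RYGB than in disease (limma, adjusted p = 0.0416) and than in healthy control (adjusted p = 0.0223). Serpina1 was low but also called higher in RYGB, at a median of 69.1 in RYGB and 12.2 in healthy control (log2 fold change 2.47, adjusted p = 0.0121). The part of Cyp2e1, Serpina1 and Adipoq in the results on the transporters was not tested. RYGB replicates 2 and 4 stood apart from the other 4 RYGB libraries: they were the highest in 4 of the transporters (Slc7a13, Slc3a1, Slc6a18, Slc15a2) and the lowest in 5 (Slc7a7, Slc7a8, Slc7a9, Slc3a2, Slc6a19). In the same 5, disease replicates 2 and 5 and healthy control replicates 1 and 4 were the lowest of their groups. Disease replicates 2 and 5 were also the highest of disease in Slc7a13 (1874 and 3512), but not both in Slc3a1, Slc6a18 or Slc15a2. No pair of those groups was left out. Calls in RYGB that rest on RYGB replicates 2 and 4 are given with and without these libraries, for the marker lists as counts. In this bulk tissue, fewer cells of a type and less RNA per cell cannot be told apart.

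**Figure D1:**
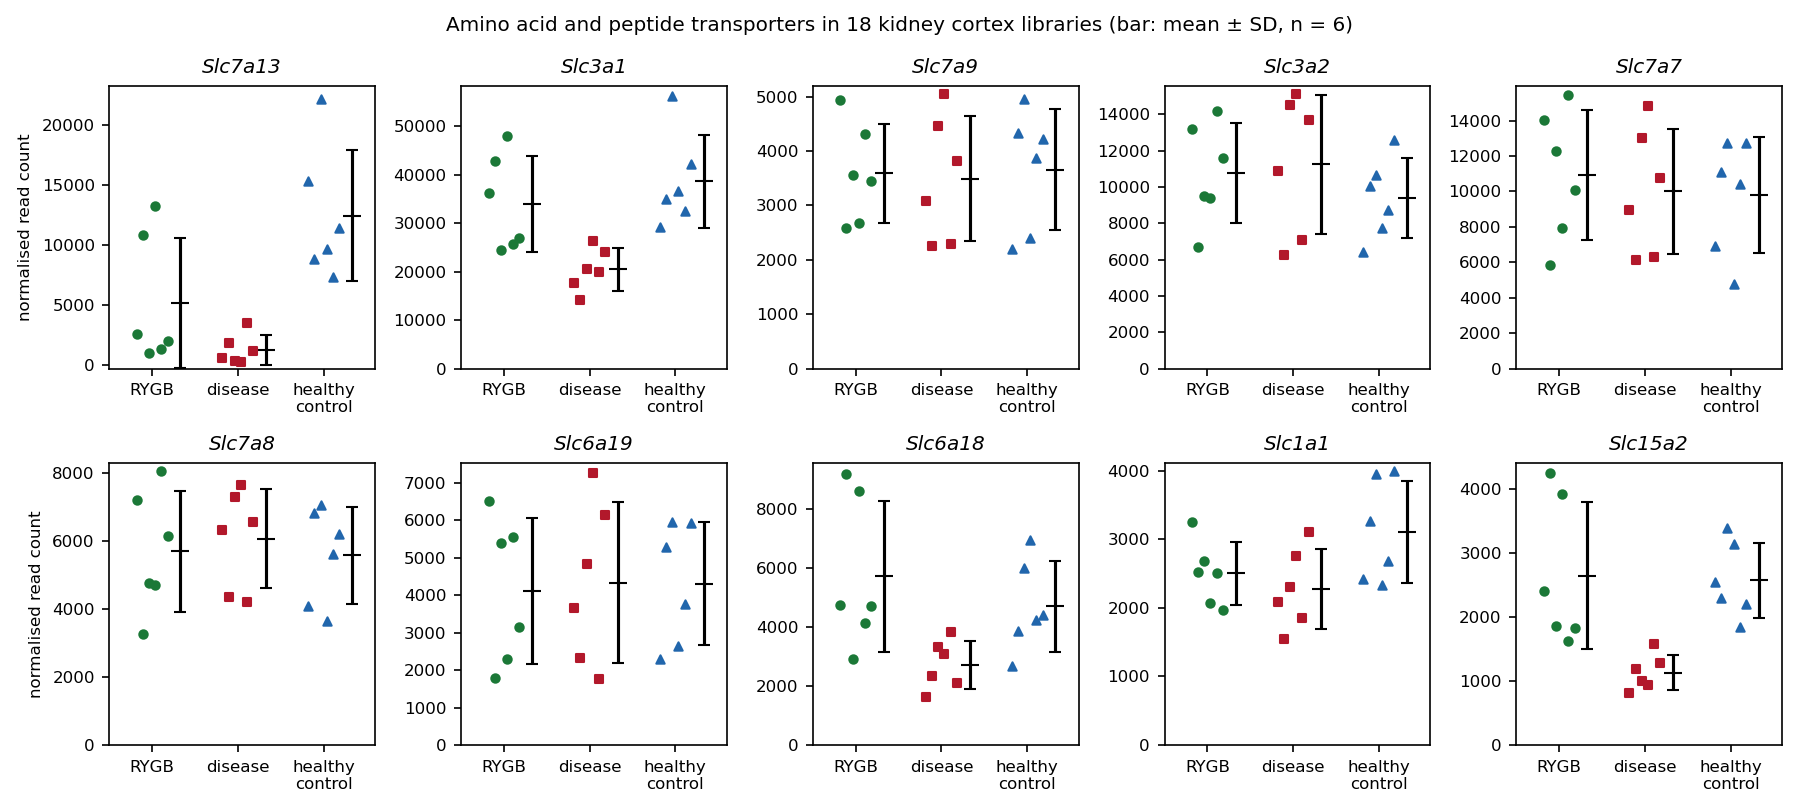
Normalised read counts (vertical axes, linear) of the 10 transporters in each library of RYGB, disease and healthy control; bars show the mean ± SD (n = 6), and the lower bar of Slc7a13 in RYGB ends below 0. Slc7a13, Slc3a1 and Slc15a2 are lower in all 6 disease libraries than in any healthy control library, and RYGB replicates 2 and 4 are the highest RYGB points of Slc7a13, Slc3a1, Slc6a18 and Slc15a2.

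Disease set against healthy control compared the cortex of diabetic fa/fa rats with that of lean fa/+ rats. Genotype, obesity and diabetes differ together between these groups and cannot be told apart. Of the 10 transporters 3 fell and 0 rose: Slc7a13, Slc15a2 and Slc3a1, the carrier of acidic amino acids and cystine, the peptide carrier and the brush-border heavy subunit. Over all genes tested 1.61% were called at an adjusted p below 0.05, 1.03% as lower. In counts of genes, fell and rose mean called lower and called higher. In these 3 genes, and in no other transporter of the 10, the groups did not overlap, which held for 1.24% of all genes. The median log2 fold change of the 10 was -0.26, against 0.0016 over all genes.

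RYGB set against disease asked what the operation changes in diabetic kidneys. Of the 10 transporters 2 rose, Slc15a2 and Slc6a18, and 0 fell, where 3.95% of all genes were called, 1.84% as higher and 2.1% as lower. Slc15a2 alone did not overlap between the groups, which held for 2.6% of all genes. The median log2 fold change of the 10 was 0.14, against -0.00087 over all genes. When RYGB replicates 2 and 4 were left out, Slc15a2 was the 1 of the 10 called (log2 fold change 0.79). Uncalled fold changes were then also above 0, among them those of Slc7a13 (0.95), Slc6a18 (0.64) and Slc3a1 (0.48).

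Of the 10 transporters 0 were called in RYGB against healthy control by limma, 0 by edgeR and 0 by DESeq2, and 1 had an unadjusted p below 0.05, Slc7a13. Of all genes 4.44% were called, 2.46% as higher and 1.98% as lower, and 3.22% did not overlap. The median log2 fold change was -0.018 for the 10 and -0.013 for all genes. The 3 comparisons share libraries, so their fold changes are not independent of each other.

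**Figure D2:**
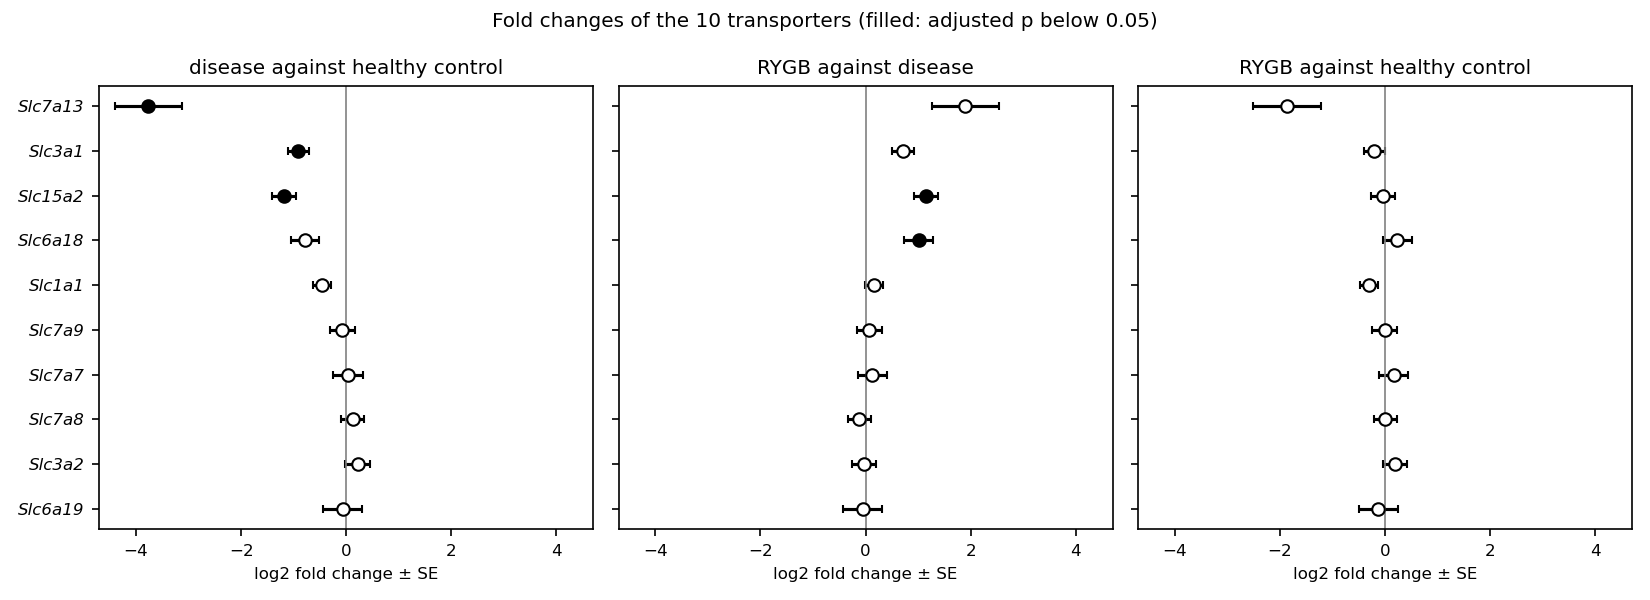
Log2 fold changes ± SE (horizontal axes) of the 10 transporters in the 3 comparisons, from limma over 18 libraries; filled points have an adjusted p below 0.05. Slc7a13 has the lowest fold change in disease against healthy control (-3.76), and 5 of the 30 points are filled.

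Slc7a13 had the widest fold range of the 10 transporters. RYGB libraries had 1037 to 13259 normalised reads (median 2311), disease libraries 248 to 3512 (median 861), and healthy control libraries 7371 to 22108 (median 10534). The healthy control libraries lay above every disease library. The RYGB libraries split, since replicates 2 and 4 had 10807 and 13259, inside the healthy control range, and the other 4 had 1037 to 2627, below it.

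The mean of Slc7a13 was 1286 ± 1247 in disease and 12448 ± 5469 in healthy control (SD, n = 6 each). On the log2(value + 1) scale it fell by 3.76 ± 0.64 in disease (SE, limma with Benjamini-Hochberg adjustment, adjusted p = 0.0033). In all 31 alternative analyses it stayed called, at fold changes of -4.17 to -3.28. Disease replicate 5 was the highest disease library, with 3512.

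In RYGB Slc7a13 averaged 5178 ± 5394, against 1286 ± 1247 in disease (SD, n = 6 each). The log2 fold change was 1.90 ± 0.64 (limma, adjusted p = 0.102), and 5 of 6 RYGB libraries lay above the disease mean. It was 0.95 (adjusted p = 0.483) without RYGB replicates 2 and 4. It was called without disease replicate 5 (2.31, adjusted p = 0.0363) and without RYGB replicate 3 (2.22, adjusted p = 0.0488). It was also called with the level of convoluted-part marker genes, the mean of their centred log2 values, as a covariate (2.05, adjusted p = 0.0179). Against healthy control the fold change in RYGB was -1.86 ± 0.64 (adjusted p = 0.0892), and without RYGB replicates 2 and 4 it was -2.82 (adjusted p = 0.0141). It was also called with the compared groups alone (adjusted p = 0.0476) and with the covariate (-1.72, adjusted p = 0.0386).

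Slc3a1, the heavy subunit of the brush border, had 24394 to 48059 normalised reads in RYGB (median 31487), 14140 to 26363 in disease (median 20208) and 29100 to 56173 in healthy control (median 35735). Every disease library lay below every healthy control library, and the RYGB libraries overlapped both other groups. It averaged 20450 ± 4375 in disease and 38587 ± 9659 in healthy control (SD, n = 6 each), and fell by 0.91 ± 0.20 on the log2 scale (limma, adjusted p = 0.0209). This call was lost without disease replicate 2 (adjusted p = 0.0557), healthy control replicate 3 (adjusted p = 0.0674) or healthy control replicate 6 (adjusted p = 0.0596), and held in the other 28 of 31 alternatives.

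In RYGB Slc3a1 averaged 33993 ± 9900, against 20450 ± 4375 in disease, and all 6 RYGB libraries lay above the disease mean. Its log2 fold change of 0.71 ± 0.20 just missed the threshold (limma, adjusted p = 0.0503). It passed in 11 of 30 alternatives, among them edgeR and DESeq2. Without RYGB replicates 2 and 4, which had 42749 and 48059, it was 0.48 (adjusted p = 0.277).

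Slc7a9, the light subunit that pairs with rBAT, was not called in any comparison. It had 2579 to 4930 normalised reads in RYGB, 2252 to 5051 in disease and 2197 to 4950 in healthy control, and these ranges overlapped almost fully. The log2 fold change of disease against healthy control was -0.07 with a 95% interval of -0.53 to 0.39 (limma, adjusted p = 0.946). For RYGB against disease it was 0.07, with an interval of -0.39 to 0.53.

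Ratios of 2 transporters within a library do not depend on its size factor. They are read ratios without transcript length, so they compare libraries and say nothing on how many of each protein there are. There were 4 ratios in 3 comparisons, 12 exact permutation tests (two-sided, adjusted by Benjamini-Hochberg over the 12), of which 2 passed.

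The reads of Slc7a13 were 4.25 to 27.6% of those of Slc3a1 in RYGB (median 7.35%), 0.941 to 17.6% in disease (median 4.00%) and 22.6 to 52.7% in healthy control (median 26.7%). All 6 disease libraries lay below all 6 healthy control libraries. The log2 ratio was -4.55 ± 1.64 in disease and -1.70 ± 0.47 in healthy control (SD, n = 6 each), a difference of -2.85 (exact permutation p = 0.0022, the smallest that 924 splits allow, adjusted p = 0.026). The call was lost when healthy control replicate 1, 3, 4 or 6 was left out (adjusted p = 0.052). The groups still did not overlap there, and fewer splits raise the smallest p that the test can give. With sign flips within the 6 replicate numbers the adjusted p was 0.30. A ratio alone cannot pass that test, and no label says that the numbers pair these groups. Its adjustment also counted the comparisons with RYGB, whose numbers gave no pairing. In RYGB against healthy control the difference was -1.66 (exact permutation p = 0.026, adjusted p = 0.104), with all 6 RYGB libraries below the healthy control mean, and it was -2.39 without RYGB replicates 2 and 4 (adjusted p = 0.026).

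The reads of Slc7a9 were 5.58 to 16.7% of those of Slc3a1 in RYGB (median 13.3%), 11.5 to 21.8% in disease (median 16.7%) and 6.55 to 12.4% in healthy control (median 9.40%). All 6 disease libraries were above the healthy control mean, and the 2 groups overlapped. The log2 ratio was higher by 0.84 in disease than in healthy control (exact permutation p = 0.0065, adjusted p = 0.039). In RYGB against disease it differed by -0.64 (adjusted p = 0.145). Leaving out any 1 of 9 of the 12 libraries took the adjusted p of disease against healthy control to between 0.052 and 0.078. Each such test also has fewer splits, which raises its smallest p. Sign flips within the replicate numbers gave an adjusted p of 0.30, a test that a ratio alone cannot pass.

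**Figure D3:**
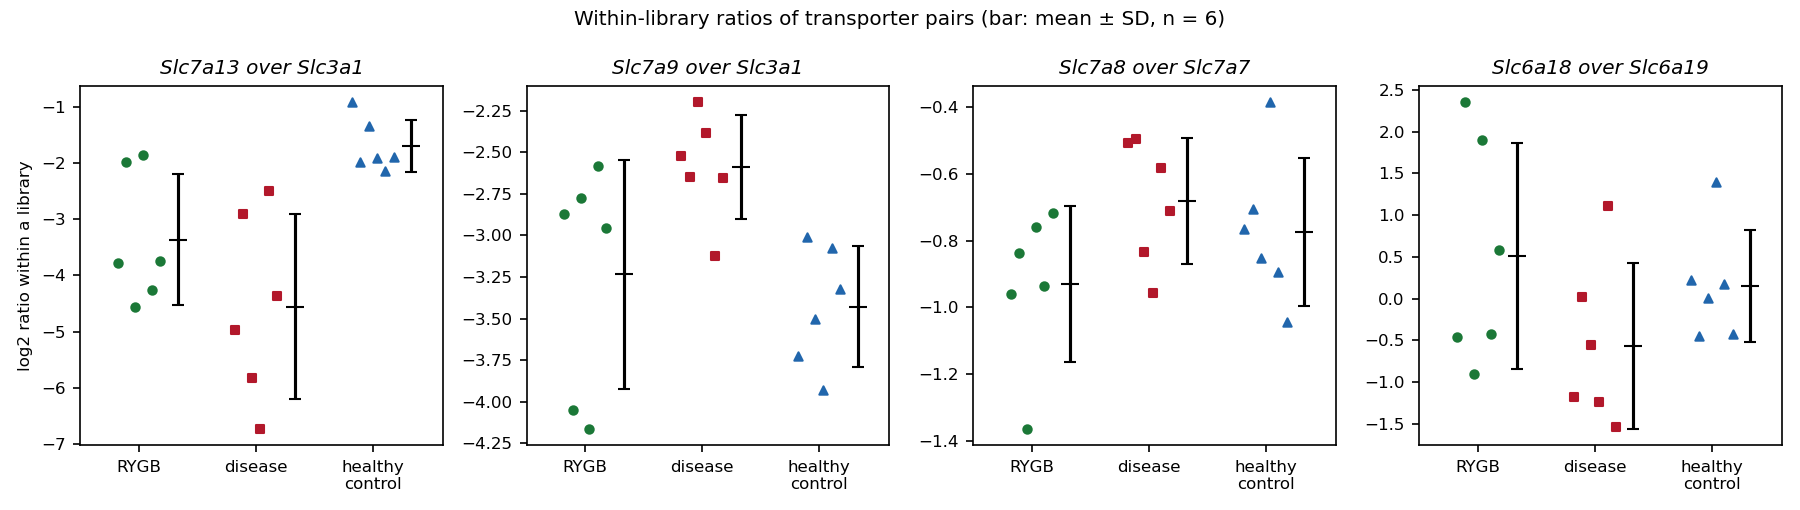
Log2 ratio of normalised reads of 2 transporters within each library (vertical axes) in RYGB, disease and healthy control; bars show the mean ± SD (n = 6). For Slc7a13 over Slc3a1 the disease points (-6.73 to -2.50) lie below all healthy control points (-2.14 to -0.92), and RYGB replicates 2 and 4 lie at -1.98 and -1.86.

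On the blood side no subunit was called in any comparison by limma, edgeR or DESeq2, and none had an unadjusted p below 0.05. Slc3a2, the heavy subunit 4F2hc, had 6700 to 14217 normalised reads in RYGB, 6275 to 15125 in disease and 6404 to 12597 in healthy control. Its log2 fold change in disease against healthy control was 0.22 with a 95% interval of -0.24 to 0.67 (limma, adjusted p = 0.783). The groups overlapped over most of their range.

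Slc7a7, the dibasic amino acid exporter whose loss causes lysinuric protein intolerance, had 5818 to 15419 normalised reads in RYGB, 6149 to 14820 in disease and 4754 to 12761 in healthy control. Its fold change was 0.03 in disease against healthy control (95% interval -0.52 to 0.59) and 0.13 in RYGB against disease (-0.42 to 0.68). Slc7a8, the neutral amino acid exchanger, had 3254 to 8059 in RYGB, 4213 to 7628 in disease and 3640 to 7053 in healthy control. Its fold changes were 0.13 in disease against healthy control (-0.30 to 0.56) and -0.12 in RYGB against disease (-0.55 to 0.31). The log2 ratio of Slc7a8 over Slc7a7 differed by -0.25 in RYGB against disease, with all 6 RYGB libraries below the disease mean (exact permutation p = 0.056, adjusted p = 0.145).

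Slc6a18, the neutral amino acid carrier of the later proximal tubule, had 2898 to 9182 normalised reads in RYGB (median 4721), 1614 to 3811 in disease (median 2704) and 2670 to 6940 in healthy control (median 4329). Of the RYGB libraries 5 of 6 lay above every disease library, and replicates 2 and 4 were the highest, with 9182 and 8599. It averaged 5711 ± 2558 in RYGB and 2709 ± 823 in disease (SD, n = 6 each), and rose by a log2 fold change of 1.02 ± 0.28 (limma, adjusted p = 0.0424). The call was lost in 15 of 30 alternatives. Without RYGB replicates 2 and 4 the fold change was 0.64 (adjusted p = 0.256), and 12 of 18 analyses that left out 1 library gave an adjusted p of 0.0501 to 0.113: those that left out RYGB replicate 1, 2, 4, 5 or 6, disease replicate 1, 2, 4 or 6, or healthy control replicate 2, 5 or 6.

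Slc6a18 averaged 2709 ± 823 in disease and 4689 ± 1535 in healthy control (SD, n = 6 each), and all 6 disease libraries lay below the healthy control mean. The log2 fold change of -0.78 ± 0.28 was not called (limma, adjusted p = 0.227). With the replicate number as a block within healthy control and disease alone, it was called at the same fold change (limma, adjusted p = 0.0105), but no label gives that pairing.

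Slc6a19, the main neutral amino acid carrier, was not called in any comparison. It had 1798 to 6508 normalised reads in RYGB (median 4276), 1765 to 7267 in disease (median 4251) and 2289 to 5945 in healthy control (median 4535). Its spread within a group was 2.6-fold to 4.12-fold between the highest and the lowest library. RYGB replicates 2 and 4 were its lowest RYGB libraries, with 1798 and 2307, the reverse of their place in Slc6a18. The fold change was -0.07 in disease against healthy control (95% interval -0.79 to 0.66) and -0.06 in RYGB against disease (-0.78 to 0.67).

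The log2 ratio of Slc6a18 over Slc6a19 was 0.51 ± 1.35 in RYGB, -0.57 ± 0.99 in disease and 0.15 ± 0.67 in healthy control (SD, n = 6 each). None of the 3 differences was called (exact permutation tests): the adjusted p was 0.276 in disease against healthy control and also in RYGB against disease, and 0.593 in RYGB against healthy control. In RYGB it was 2.35 and 1.90 in replicates 2 and 4, and -0.90 to 0.58 in the other 4.

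Slc1a1, the acidic amino acid carrier, had 1970 to 3261 normalised reads in RYGB (median 2513), 1540 to 3108 in disease (median 2195) and 2340 to 3999 in healthy control (median 2974). In disease 4 of 6 libraries lay below every healthy control library. The log2 fold change was -0.46 ± 0.18 in disease against healthy control (limma, adjusted p = 0.296), 0.16 in RYGB against disease (adjusted p = 0.644) and -0.30 in RYGB against healthy control (adjusted p = 0.277). RYGB replicates 2 and 4, with 2517 and 2067, lay among the other RYGB libraries in this gene.

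Slc15a2, the peptide carrier, had 1627 to 4238 normalised reads in RYGB (median 2134), 805 to 1580 in disease (median 1093) and 1849 to 3393 in healthy control (median 2421). The disease libraries lay below every library of both other groups. It averaged 1132 ± 278 in disease and 2569 ± 588 in healthy control (SD, n = 6 each), and fell by 1.19 ± 0.23 on the log2 scale (limma, adjusted p = 0.0079). It stayed called in all 31 alternatives.

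In RYGB Slc15a2 averaged 2645 ± 1143, against 1132 ± 278 in disease (SD, n = 6 each), and rose by a log2 fold change of 1.15 ± 0.23 (limma, adjusted p = 0.0076). Replicates 2 and 4 had 4238 and 3913, and the other 4 had 1627 to 2411, still above every disease library. Without replicates 2 and 4 the fold change was 0.79 (adjusted p = 0.0437), and the call held in all 30 alternatives. RYGB and healthy control differed by -0.03, with a 95% interval of -0.48 to 0.42 (adjusted p = 0.94).

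Some segment markers were also called. Over all genes 1.61% were called in disease against healthy control, 3.95% in RYGB against disease and 4.44% in RYGB against healthy control. These shares apply to each marker list below. The 10 listed straight-part genes in the table summed to 45820 to 79762 normalised reads in RYGB, 40538 to 52112 in disease and 82416 to 133454 in healthy control, none of them at 0 in any library. The sum leans on Kap, a kidney protein that averaged 5543 ± 4263 in disease and 58046 ± 23936 in healthy control. Of the 10 listed genes 3 fell in disease against healthy control, among them Kap (log2 fold change -3.52, limma adjusted p = 0.000911) and the acyl-CoA synthetase Acsm3 (-0.59, adjusted p = 0.0195). Of the same genes 1 rose (Agt) in RYGB against disease and 1 fell (Cyp7b1, -0.88). In RYGB against healthy control, where 0 of the 10 transporters were called, 3 fell: Kap (-2.12, adjusted p = 0.0274), Acsm3 (-0.53, adjusted p = 0.0259) and Cyp7b1 (-1.08, adjusted p = 0.000768). The median log2 fold change of the 10 listed genes there was -0.026, so the list as a whole was not lower. It was -0.63 in disease against healthy control and 0.50 in RYGB against disease. Without RYGB replicates 2 and 4, limma called 1 of the 10 listed genes in RYGB against disease and 4 in RYGB against healthy control. Agt and Cyp7b1 were named after their values were seen.

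The 11 listed genes of the convoluted part summed to 189240 to 340118 in RYGB, 148801 to 324856 in disease and 186814 to 344422 in healthy control, none at 0, and limma called 0 of 11 in disease against healthy control (1 with an unadjusted p below 0.05, 0 by edgeR, 0 by DESeq2) and 0 of 11 in RYGB against disease (4 with an unadjusted p below 0.05, 0 by edgeR, 2 by DESeq2). In RYGB against healthy control 1 of 11 fell, Gatm (log2 fold change -1.42, limma adjusted p = 0.0437). There edgeR and DESeq2 called 1 each, and limma called 0 without RYGB replicates 2 and 4. RYGB replicates 2 and 4 had the highest straight-part sums of RYGB, 76202 and 79762 against 45820 to 57449 in the other 4. They also had the lowest convoluted-part sums, 189240 and 207411 against 228882 to 340118. 

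Thick ascending limb genes, of a later segment, were called in the same comparisons. The 4 listed genes in the table summed to 46608 to 120813 in RYGB, 24424 to 73100 in disease and 75566 to 100061 in healthy control, with none at 0 in any library. In disease against healthy control 2 of 4 fell, Umod, which encodes uromodulin (log2 fold change -1.36, limma adjusted p = 0.0129), and the claudin gene Cldn10 (-0.80, adjusted p = 0.000911). Against disease 3 of 4 rose in RYGB, among them Umod (1.13, adjusted p = 0.0294), and 0 of 4 were called there when RYGB replicates 2 and 4 were left out. These replicates had the highest sums of RYGB, 120813 and 94492, against 46608 to 67184 in the other 4. The part of segment composition in the changes of Slc7a13, Slc3a1, Slc6a18 and Slc15a2 was not tested.

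Some markers of tubular injury were called as well. The 11 listed genes summed to 15742 to 18476 in RYGB, 24279 to 49644 in disease and 11516 to 19043 in healthy control, with 1 gene at 0 in 1 healthy control library. In disease against healthy control 5 of 10 tested rose, among them osteopontin, encoded by Spp1 (log2 fold change 2.50), and clusterin, encoded by Clu (0.96), and in RYGB against disease 3 of 10 fell. The others called in disease include Cdkn1a and Krt8, named after their values were seen. Both had small fold changes in RYGB against disease (-0.27 for Cdkn1a, adjusted p = 0.617, and 0.01 for Krt8, adjusted p = 0.982) and were called higher in RYGB than in healthy control (1.62, adjusted p = 0.0032, for Cdkn1a and 0.83, adjusted p = 0.0301, for Krt8). Without RYGB replicates 2 and 4, limma called 3 of the 10 tested injury genes in RYGB against disease and 1 in RYGB against healthy control. The part of the injury markers in the changes of the transporters was not tested.

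**Figure D4:**
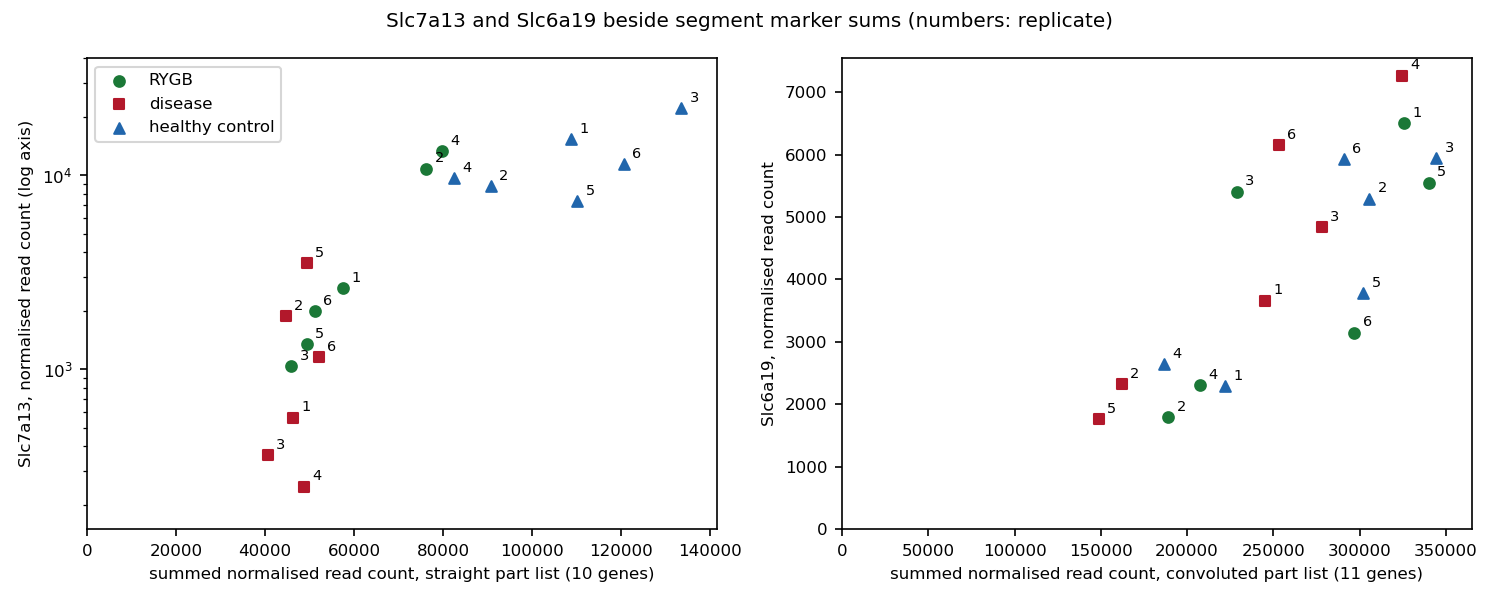
Left, normalised reads of Slc7a13 (log axis) against the summed straight-part genes of each library; right, Slc6a19 against the summed convoluted-part genes (linear axes); numbers are replicates. RYGB replicates 2 and 4 (straight-part sums 76202 and 79762) lie apart from the other 4 RYGB libraries, which lie beside the disease libraries.

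The other amino acid and peptide carriers formed a list of their own. Of 44 listed carriers 41 were in the table and 31 were tested. In disease against healthy control, where 1.61% of all genes were called, 1 of 31 fell, Slc7a12, of the same family as Slc7a13. It averaged 124 ± 31.0 in disease and 274 ± 123 in healthy control (log2 fold change -1.07, limma adjusted p = 0.0205), and the call was lost with the compared groups alone and without disease replicate 2 (adjusted p of at most 0.058). In RYGB against disease, where 3.95% of all genes were called, 2 of 31 rose. These were the glutamine transporter Slc38a3, at 4340 ± 1736 in RYGB and 1924 ± 355 in disease (1.05, adjusted p = 0.0383), and the proline transporter Slc6a20, at 672 ± 84.7 in RYGB and 422 ± 88.8 in disease (0.69, adjusted p = 0.0444).

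Slc6a20 also rose in RYGB against healthy control, at 672 ± 84.7 in RYGB and 428 ± 158 in healthy control (0.72, adjusted p = 0.0375). Leaving out RYGB replicates 2 and 4 left 0 of 31 called in either comparison with RYGB (8 of 31 against disease and 5 against healthy control had an unadjusted p below 0.05 with all libraries), and the fold changes were 0.76 for Slc38a3 and 0.61 for Slc6a20 against disease. The calls of Slc38a3 and Slc6a20 held in 19 and 14 of 30 alternatives against disease. The median log2 fold change of the 31 was -0.07 in disease against healthy control and 0.06 in RYGB against disease.

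Peptidases, many of which split peptides at the brush border so that carriers can take up the products, and partner proteins of the carriers formed a list of 19, of which 14 were tested. Their median log2 fold change was -0.45 in disease against healthy control, 0.32 in RYGB against disease and -0.14 in RYGB against healthy control. In disease against healthy control, where 1.61% of all genes were called, 4 of 14 fell, among them Cndp1, Mep1b and Ggt1. In RYGB against healthy control, where 4.44% of all genes were called, 1 of 14 fell. Cndp1, a carnosine dipeptidase, averaged 583 ± 290 in disease and 2072 ± 581 in healthy control (log2 fold change -1.91, limma adjusted p = 0.0044). Mep1b, the beta subunit of the metalloprotease meprin, averaged 367 ± 321 in disease and 1439 ± 428 in healthy control (-2.37, adjusted p = 0.0119). In Cndp1 and Mep1b disease and healthy control did not overlap, which held for 1.24% of all genes. With the replicate block within disease and healthy control alone, 6 of 14 were called.

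Ggt1, the gamma-glutamyltransferase that splits glutathione at the brush border, averaged 4518 ± 1407 in disease and 9178 ± 2605 in healthy control (-1.03, limma adjusted p = 0.0236). Its call was lost when disease replicate 1 or 2, or healthy control replicate 3 or 6, was left out (adjusted p of at most 0.0762).

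In RYGB against disease, where 3.95% of all genes were called, 4 of 14 rose. Ggt1 averaged 12468 ± 4133 in RYGB and 4518 ± 1407 in disease, with no overlap (1.45, limma adjusted p = 0.0014), and stayed called in all 30 alternatives. The others were Cndp1 (1.55, adjusted p = 0.0155), Mep1b (1.91, adjusted p = 0.0308) and Mep1a, the alpha subunit of meprin (0.74, adjusted p = 0.0339). With RYGB replicates 2 and 4 left out, Ggt1 alone of the 14 was called (1.18, adjusted p = 0.0137). Cndp1 was then at 1.02 (adjusted p = 0.0916), Mep1b at 1.31 (0.199) and Mep1a at 0.65 (0.165).

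Tmem27 encodes collectrin, the partner of B0AT1 in the kidney, and was singled out after its values were seen. It averaged 25283 ± 6048 in RYGB, 27696 ± 10175 in disease and 35396 ± 4655 in healthy control, and was not called in any comparison (adjusted p = 0.489 in disease against healthy control, 0.878 in RYGB against disease, 0.158 in RYGB against healthy control).

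**Figure D5:**
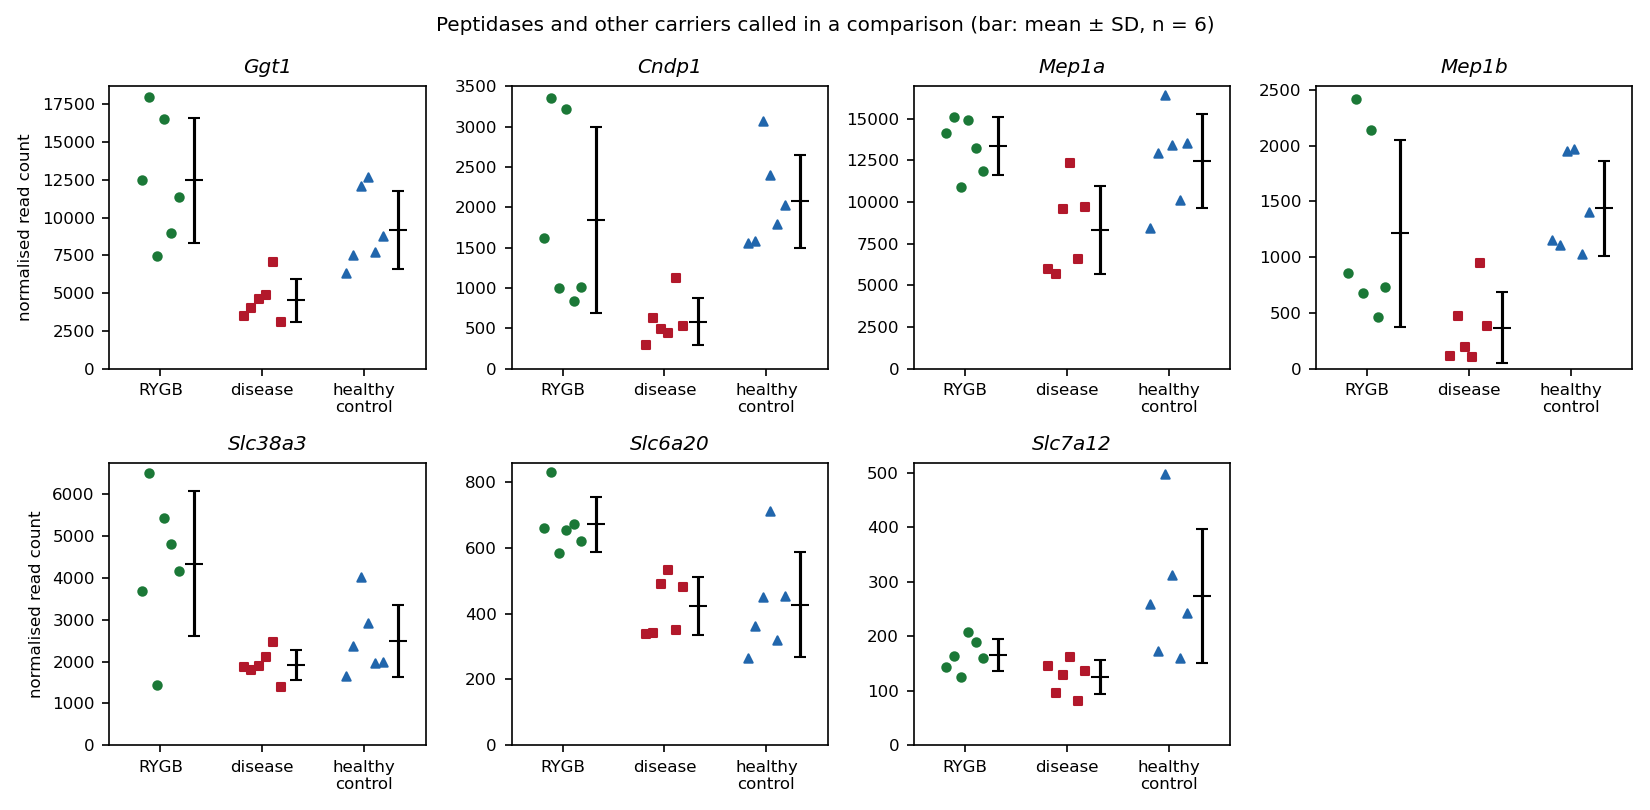
Normalised read counts (vertical axes, linear) of 4 peptidases and 3 other carriers called in a comparison, by library; bars show the mean ± SD (n = 6). Ggt1 is higher in all 6 RYGB libraries than in any disease library, and Cndp1 and Mep1b are lower in all 6 disease libraries than in any healthy control library.

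The targets of ATF4, a factor that cells switch on when amino acids run short, formed a further list. Over all genes 1.61% were called in disease against healthy control, 3.95% in RYGB against disease and 4.44% in RYGB against healthy control. Counts of calls in so short a list cannot tell it apart from all genes. Of 14 tested, limma called 0 in disease against healthy control (3 with an unadjusted p below 0.05, 0 by edgeR, 1 by DESeq2) and 0 in RYGB against healthy control (4 with an unadjusted p below 0.05, 1 by edgeR, 1 by DESeq2), and 1 rose in RYGB against disease. The 1 gene was Cth, an enzyme that makes cysteine, at 6465 ± 2044 in RYGB and 4095 ± 505 in disease (0.61, limma adjusted p = 0.0413), and without RYGB replicates 2 and 4 it was at 0.34 (adjusted p = 0.24). The median log2 fold change of the 14 was 0.05 in disease against healthy control, -0.09 in RYGB against disease and -0.015 in RYGB against healthy control.

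For each of the 4 transporters called in a comparison, the 5 genes with the most alike pattern were taken from 11766 tested genes with a symbol, by the root mean square difference of centred log2 values over the 18 libraries, which share their groups. For Slc7a13, whose own root mean square was 1.93, they were Hnmt, a histamine methyltransferase (difference 0.31), Iqch (0.44), Gc, the vitamin D binding protein (0.51), Dhrs7l1 (0.52) and Slco1a6, an organic anion transporter (0.52). For Slc3a1, at 0.51, they included Mep1a (0.24), the flavin monooxygenase Fmo4 (0.25), Cth (0.25) and Cryz (0.26). For Slc6a18, at 0.65, they were Ggt1 (0.25), Otog, Phf19 and Gss, a glutathione synthetase (0.29 each), and Pim3 (0.30). For Slc15a2, at 0.68, they were Gclm, a subunit of the enzyme that starts glutathione synthesis (0.24), B3galt5 (0.24), Oat, ornithine aminotransferase (0.25), Aadat (0.26) and Sema6a (0.27).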

How the data were processed

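Kidney cortex RNA of 18 rat libraries was sequenced from a stranded polyadenylated RNA kit, per the labels' protocols. Each deposited value is a signal: the reads of a gene after the authors' division by a size factor of its library. Quality was checked with MultiQC 0.9 and FastQC 0.11.2, and DESeq2 and HTSeq 0.6.1p1 were used on build Rnor 5.0, per the submitters' processing notes. Neither the aligner nor the use of strand in counting was given in the sources used here. The table has 18423 lines, of which 3 name no gene (no feature 27.6 to 43.2%, several places 13.5 to 18.1%, ambiguous 0.069 to 0.114% of reads), and these 3 were left out. Whole reads were recovered for at least 99.98% of a library's values, within 0.01 reads. The lowest chi-square per degree of freedom between libraries of a group was 21.4, so each counts once.

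With R 4.3.3, limma 3.58.1 with its trend option was fitted to log2(value + 1) of the 13988 genes that reached 10 in 6 or more libraries, in 1 fit of 3 group means over 18 libraries. P-values are two-sided and adjusted by Benjamini-Hochberg over all genes tested, and a gene was called below 0.05. Fold changes on this scale understate those of low genes. edgeR 4.0.16 and DESeq2 1.42.0 on the recovered reads were alternatives, beside other filters, pseudocounts, quantile normalization, the compared groups alone, a replicate block and leaving out each library. Promoter, table and figure steps used Python 3.11.15. The scripts were tested on simulated data.

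Replicate numbers recur in each group. Same-numbered libraries of disease and healthy control deviated together (correlation 0.131 to 0.325 in 6 of 6 numbers), which by the rule used pairs them. The healthy control library most like a disease library had the same number in 3 of 6, and no label gives a source for the pairing, so the pairing is uncertain. For RYGB the correlations were -0.557 to 0.309 with disease and -0.31 to 0.0141 with healthy control, which gives no pairing.

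The members and the gene lists were chosen with earlier results of these data known. The genes named are all 10 transporters, the called genes of the lists of other carriers and of partners and peptidases, up to 2 called genes of a cell type list, and the 5 genes most like each called transporter. Promoters came from RefSeq (GRCr8). No coordinates on Rnor 5.0 are given. Some genes that the rule names are not reported here.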

Additional observations from a re-analysis of the deposited data

Results flagged for a closer look

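Of 42 groups of 6 libraries searched (the 10 transporters and 4 ratios in each of the 3 groups), 1 held a library far from the others. The log2 ratio of Slc6a18 over Slc6a19 was 1.393 in healthy control replicate 4, and -0.45 to 0.222 in the other 5 healthy control libraries. Its gap to the nearest library was 0.635 of the whole range, above Dixon's critical value at 95% for a group of this size. Chance alone gives about 1 such group in 20. This library also had the lowest convoluted-part sum of healthy control (186814), and the part of this in the ratio was not tested.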

How the results depend on the processing

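Slc7a13 and Slc15a2 in disease against healthy control stayed called in 31 of 31 alternatives, and Slc15a2 in RYGB against disease in 30 of 30. Counts of called transporters in disease against healthy control were 3 in all alternatives except leave-one-outs (2 to 3) and the block within disease and healthy control alone (4, with Slc6a18).

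In RYGB against disease the count was 1 with the compared groups alone, 1 without RYGB replicates 2 and 4, 4 with the convoluted-part (S1 and S2) marker level as a covariate, and 1 to 4 when 1 library was left out. In RYGB against healthy control it was 1 (Slc7a13) under each of the first 3 of these and 0 to 0 when 1 library was left out. The settings without RYGB replicates 2 and 4, with the covariate and with the block in disease and healthy control alone were chosen after seeing the data.

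No fold change whose sign changed was called under any alternative in that comparison. In disease against healthy control Slc6a19 was at 0.0023 by edgeR with TMM, 0.0075 by edgeR with the authors' size factors and 0.0077 by DESeq2. When 1 library was left out, Slc7a7 ran from -0.16 to 0.16, Slc7a9 from -0.21 to 0.041 and Slc6a19 from -0.25 to 0.16. In RYGB against disease, without RYGB replicates 2 and 4, Slc7a8 was at 0.12, Slc3a2 at 0.17 and Slc6a19 at 0.37, and with the covariate Slc7a9 was at -0.0046. Leaving out 1 library gave -0.23 to 0.031 for Slc7a8, -0.044 to 0.19 for Slc7a9, -0.18 to 0.10 for Slc3a2 and -0.28 to 0.15 for Slc6a19. In RYGB against healthy control Slc15a2 was at 0.051 (edgeR with TMM), 0.042 (edgeR with the authors' size factors), 0.042 (DESeq2) and 0.0086 (covariate). There Slc7a8 was at -0.046 after quantile normalization and -0.056 with the covariate. Without RYGB replicates 2 and 4, Slc7a9 was at 0.20, Slc6a18 at -0.15, Slc6a19 at 0.31 and the ratio of Slc6a18 over Slc6a19 at -0.45. Leaving out 1 library gave -0.026 to 0.33 for Slc7a7, -0.10 to 0.16 for Slc7a8, -0.14 to 0.097 for Slc7a9, -0.29 to 0.085 for Slc6a19, -0.19 to 0.086 for Slc15a2 and -0.014 to 0.64 for the ratio of Slc6a18 over Slc6a19.

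Without RYGB replicates 2 and 4 the ratios in RYGB against healthy control were called at -2.39 for Slc7a13 over Slc3a1 and 0.63 for Slc7a9 over Slc3a1. Leaving out 1 library gave -3.26 to -2.42 (disease, lost without healthy control replicates 1, 3, 4 or 6) and -1.97 to -1.43 (RYGB, called without RYGB replicate 2 or 4) for Slc7a13 over Slc3a1 against healthy control, and 0.74 to 0.95 for Slc7a9 over Slc3a1 in disease. Where the disease call of Slc7a13 over Slc3a1 was lost, the groups still did not overlap. With the replicate block the disease ratios of Slc7a13 over Slc3a1 (-2.85) and Slc7a9 over Slc3a1 (0.84) had an adjusted p of 0.30, from sign flips over 6 pairs. These are too few pairs for a ratio alone to pass after adjustment. The block changed no call of a transporter in the 18-library fit, and the pooled block within disease and healthy control changed Slc6a18 alone. The causes of these changes were not tested. Over all genes, disease against healthy control had 225 calls, 415 by DESeq2, 143 with a minimum of 50, 405 with the covariate and 124 to 310 when 1 library was left out. RYGB against disease had 552 calls, 1088 by DESeq2, 991 with the covariate, 194 without RYGB replicates 2 and 4 and 259 to 817 when 1 library was left out. RYGB against healthy control had 621 calls, 1586 by DESeq2, 1442 with the compared groups alone, 1162 with the covariate, 211 without RYGB replicates 2 and 4 and 203 to 1501 when 1 library was left out. The other carriers had 0 to 2, 0 to 3 and 0 to 4 calls in these comparisons, where 1, 2 and 1 are reported. The fewest reads behind a transporter's value were 226, and what depth limits was not tested.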
